A study of Mus musculus with 6 samples.

Results

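Homeobox genes other than the Hox clusters were examined in the 2 astroglial fractions sorted from neonatal mouse cerebellum. The 42 genes were taken by name from the array's own annotation and cover the Iroquois (Irx), MEIS and PBX, sine oculis (Six2 to Six6), LIM, DLX, GSX, MSX, EMX, NKX and DBX families, together with Phox2a and Tlx3. They were represented by 56 of the 55681 probes, and by 42 of the 34836 gene names, on the array. Of these genes, 10 had more than 1 probe, and a gene is described here by its probe with the highest mean signal.

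All 6 samples came from cerebella of wild-type CD1 mice, labelled as postnatal day 1 to 3, and each sample held 50000 cells and was hybridized to 1 array. The paper's methods differ on both points, with a C57BL/6 background for wild-type mice and an earlier age for the arrays. The A+/G+ fraction (ACSA-2+/GLAST+, n = 3) was enriched with beads against the astrocyte surface antigen ACSA-2. The A-/G+ fraction (ACSA-2-/GLAST+, n = 3) was first depleted of cells carrying ACSA-2, L1CAM, PSA-NCAM, CD45 or Ter119 and then selected for the glutamate transporter GLAST. Neuronal and blood cells were thus removed by antibody from A-/G+ and not from A+/G+, and tissue was pooled across animals of either sex.

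Homeobox genes encode transcription factors that bind DNA through a homeodomain. In the embryonic neural tube they are expressed in restricted domains along the head-to-tail and back-to-belly axes, and combinations of them set which neurons and glia each domain makes. MEIS and PBX proteins, the TALE class, act largely as DNA-binding partners of Hox and other homeodomain proteins. In the cerebellum, which forms from the dorsal part of the most anterior hindbrain, many of the listed genes are known mainly from neighbouring territories: DLX, EMX and Nkx2-1 from the forebrain, and DBX and Nkx6-1 from progenitors of the hindbrain and spinal cord.

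The values are fluorescence intensities on the log2 scale after quantile normalization, so that a difference of 1 is 2-fold. Every difference below is the mean of A+/G+ minus the mean of A-/G+. A gene was called when limma gave a Benjamini-Hochberg adjusted p of at most 0.05 over all probes and the medians of the fractions lay at least 4-fold apart. In all, 3 genes were called higher in A+/G+ (Meis2, Nkx6-1 and Dbx2) and 2 higher in A-/G+ (Irx4 and Msx2), and their probes are shown by the first 30 of 60 bases because these are the sequences whose hybridization was measured. The positions of the whole probes are those of the array annotation on mm9, and whether they lie in coding or untranslated exons was not analysed here. The Irx4 probe lies at chr13:73406712-73406771, the Msx2 probe at chr13:53562318-53562377, the Meis2 probe at chr2:115689641-115689700, the Nkx6-1 probe at chr5:102088319-102088378 and the Dbx2 probe at chr15:95455071-95455130.
Irx4: aagatgagaagaccggagagcacagccgat
Msx2: cctgtccatctcttcccccagtatattttt
Meis2: ggactaagttaaacttgtacatttctgttg
Nkx6-1: cagtatcctggctgctcgccgggcctttac
Dbx2: accatttgacgggaacatactccgtgtaca

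The upstream sequences of 36 of the 42 genes were matched in the RefSeq promoter table of GRCm38.p6, which gave 41 start sites. Shown are the 250 bases before the start, 5′ to 3′ on the gene's strand, for 4 genes whose fractions differed. Irx2 and Irx4 are neighbours in 1 cluster, and the windows of Msx2 and Dbx2 hold a searched motif. Capitals mark a match on either strand to TAATTA, a core recognised by many homeodomains, or TGACAG, a core recognised by MEIS and TGIF proteins. These windows are, in the order printed, chr13:72628570-72628819 on the plus strand, chr13:73260247-73260496 on the plus strand, chr13:53472781-53473030 on the minus strand and chr15:95654772-95655021 on the minus strand.
Irx2: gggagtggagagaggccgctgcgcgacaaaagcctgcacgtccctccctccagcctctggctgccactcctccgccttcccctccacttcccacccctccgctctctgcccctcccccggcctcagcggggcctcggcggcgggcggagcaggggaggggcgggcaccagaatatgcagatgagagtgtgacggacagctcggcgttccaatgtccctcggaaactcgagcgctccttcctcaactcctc
Irx4: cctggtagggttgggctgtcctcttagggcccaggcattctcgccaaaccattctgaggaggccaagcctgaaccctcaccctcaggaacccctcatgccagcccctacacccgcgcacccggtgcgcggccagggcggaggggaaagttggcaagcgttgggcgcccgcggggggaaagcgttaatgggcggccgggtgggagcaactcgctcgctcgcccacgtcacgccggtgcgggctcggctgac
Msx2: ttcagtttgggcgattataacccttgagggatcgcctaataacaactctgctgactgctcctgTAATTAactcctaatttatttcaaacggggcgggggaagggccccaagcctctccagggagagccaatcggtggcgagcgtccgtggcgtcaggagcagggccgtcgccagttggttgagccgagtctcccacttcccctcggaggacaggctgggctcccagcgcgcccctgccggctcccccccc
Dbx2: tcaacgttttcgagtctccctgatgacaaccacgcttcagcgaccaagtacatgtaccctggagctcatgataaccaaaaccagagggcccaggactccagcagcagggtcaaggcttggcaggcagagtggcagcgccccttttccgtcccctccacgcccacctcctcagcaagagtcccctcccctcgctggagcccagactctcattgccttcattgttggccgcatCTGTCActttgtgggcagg

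TAATTA, which is its own reverse complement, was found in 1 of the 41 windows, that of Msx2, and in 4.84% of all 32851 windows of this length. TGACAG was found in 7 of the 41 windows (17.1%), those of Dbx1, Dbx2, Lhx9, Six2, Six3, Six5 and Six6, and in 15.9% of all windows. The GLI core TGGGTGGTC was found in 0 of the 41 windows and in 0.225% of all. None of the 3 motifs contains another, so no match was counted for more than 1 of them. The windows of the homeobox genes were richer in G and C than the table as a whole, with a median of 62.8% and a range of 46% to 77.6% against a median of 52.4%, and held a median of 15 CpG dinucleotides against 6.

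Of the 42 genes, 22 were well above background on all 3 arrays of at least 1 fraction, which is 52.4% compared with 52.1% of all gene names. Of these, 15 were above background on all 6 arrays. A further 16 genes were not well above background on any array, namely Dlx1, Dlx2, Dlx5, Dlx6, Emx1, Emx2, Gsx2, Isl1, Isl2, Lhx4, Lhx8, Lhx9, Nkx2-1, Nkx2-9, Phox2a and Six6. Their signals lay between 1.78 and 6.07, the highest being Lhx8 on the A-/G+ array of replicate 1. The remaining 4 genes, Irx6, Six2, Six3 and Tlx3, were above background on some arrays without reaching all 3 of a fraction.

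**Figure D1:**
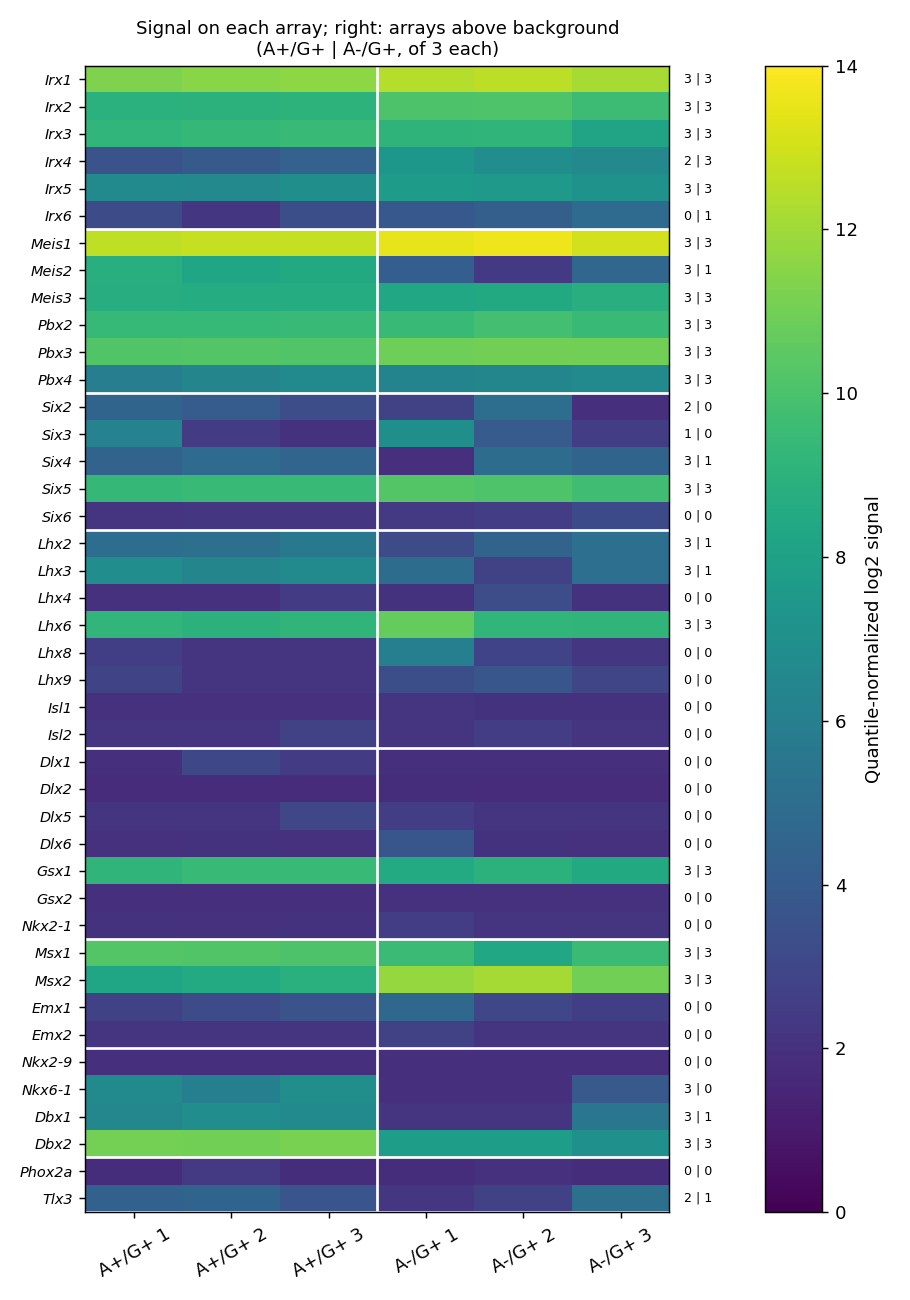
Quantile-normalized log2 signal of the brightest probe of each of the 42 genes (rows, grouped by family between white lines) on each of the 6 arrays (columns), with the number of arrays well above background in A+/G+ and A-/G+ at the right. The 16 genes marked 0 | 0 are dark, the brightest cell among them being Lhx8 at 6.07 on A-/G+ replicate 1, and colours compare arrays within a row, since different probes were not compared in level.

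The arrays differed in brightness before normalization. The 75th percentile of the intensity was 329 to 332 on the A+/G+ arrays and fell to 55.9, 112 and 250 on those of A-/G+ (replicates 1, 2 and 3). Of the 42 genes, 24, 24 and 22 were above background on the A+/G+ arrays, and 16, 16 and 23 on the A-/G+ arrays. Each fraction had a slide of its own, and the slides were scanned apart, so an effect of slide and one of fraction cannot be told apart. In sorted bulk samples, fewer cells of a type and less RNA per cell cannot be told apart either. The 3 arrays of a fraction are labelled biological replicates, and 3 against 3 cannot give an exact permutation p (two-sided) below 0.1.

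Over the 56 probes, 3 (5.36%) were called higher in A+/G+, against 1.53% of all probes, and 2 (3.57%) were called higher in A-/G+, against 0.399% of all probes. By the limma adjusted p alone, 3 probes (5.36%) were higher in A+/G+, against 4.65% of all, and 6 probes (10.7%), of 5 genes, were higher in A-/G+, against 4.64% of all. The probes whose arrays did not overlap between the fractions numbered 8 (14.3%) with all A+/G+ arrays above, against 12.7% of all probes, and 21 (37.5%) with all A-/G+ arrays above, against 24.3% of all. Among the 22 genes above background on all 3 arrays of a fraction, the arrays did not overlap for 8 genes with A+/G+ above and for 8 with A-/G+ above, where 23.8% and 26% of all probes so detected did not overlap in these directions. For the 56 probes, the shares with A+/G+ above were thus close to those of the whole array by the adjusted p alone and by non-overlap. Among the 22 genes above background, 8 of 22 is a larger share than 23.8%, and with A-/G+ above it is larger than 26%. The detection filter itself enters these shares. Meis2, Lhx3, Nkx6-1 and Dbx1 passed it only through A+/G+, where they were higher, and Irx4 only through A-/G+, where it was higher. These comparisons also set genes, each by its brightest probe, against probes. The excess was not tested, and nothing is concluded from it. The median difference of the 42 genes was -0.11, and that of all gene names was -0.05.

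**Figure D2:**
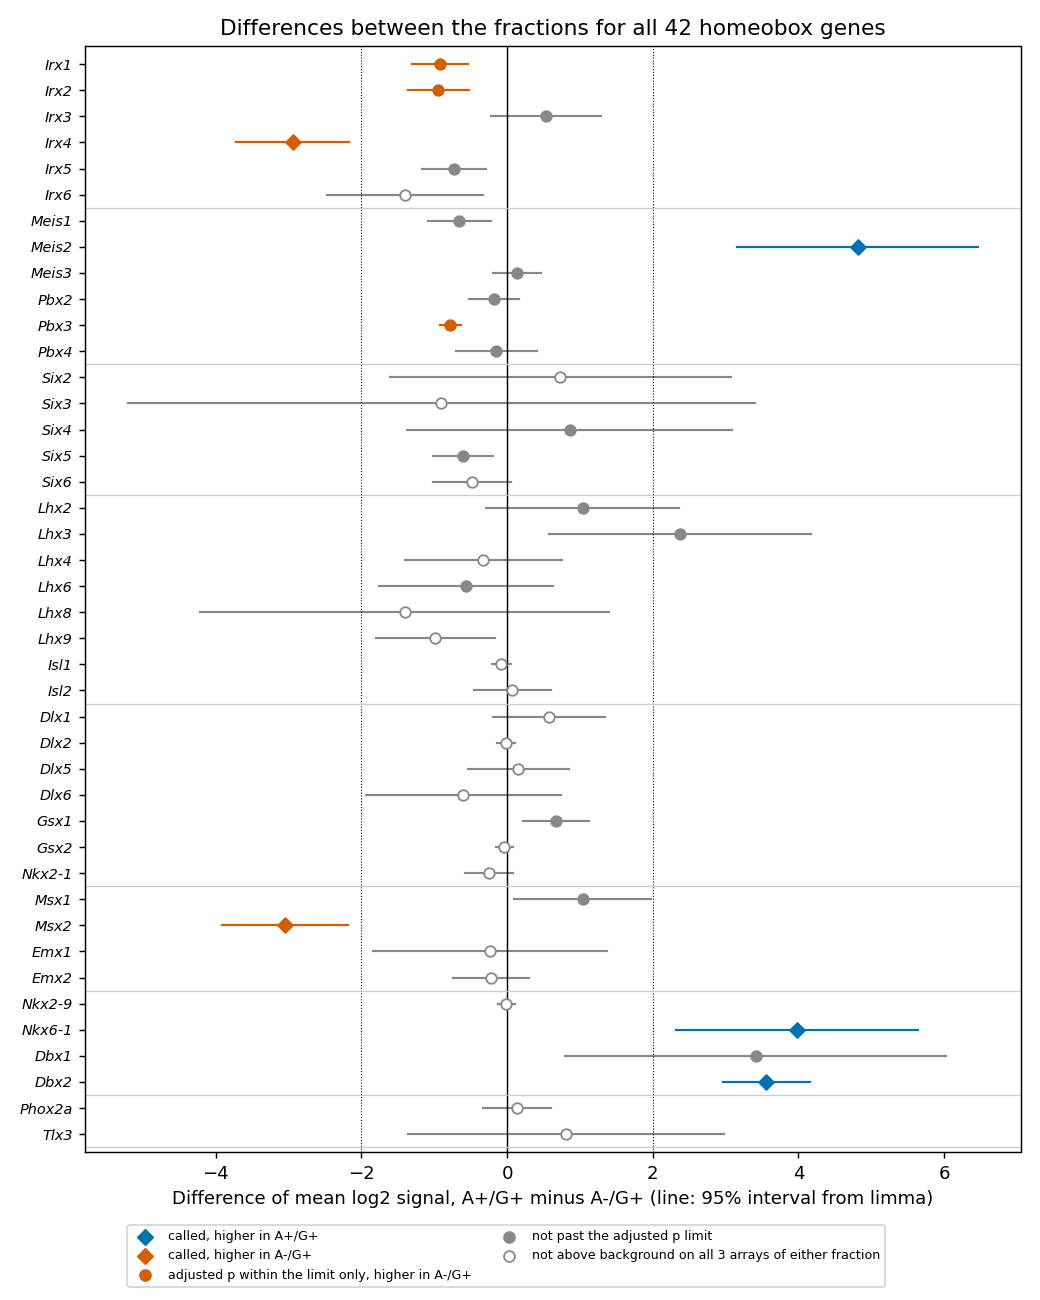
Difference of mean log2 signal between A+/G+ and A-/G+ for the 42 genes, with the 95% interval from limma; grey lines separate the families and dotted lines mark a 4-fold difference of means. The called genes are Meis2, Nkx6-1 and Dbx2 on the right and Irx4 and Msx2 on the left.

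The Iroquois genes form a 3-member cluster on chromosome 13 (Irx1, Irx2, Irx4) and another on chromosome 8 (Irx3, Irx5, Irx6), and pattern the neural plate as well as heart and retina. All 3 genes of the chromosome 13 cluster were higher in A-/G+ by the adjusted p, whereas 0 of the 3 genes of the chromosome 8 cluster passed it in either direction; the difference between the clusters was not tested. The largest of these differences was that of Irx4. Its log2 signal was 3.57, 3.96 and 4.42 on the A+/G+ arrays and 7.34, 6.85 and 6.60 on the A-/G+ arrays. The fractions did not overlap, and the gene was above background on 2 of 3 arrays in A+/G+ and 3 of 3 in A-/G+. The difference was -2.95 ± 0.30 (SE; limma adjusted p = 0.0107), with medians 7.39-fold apart. Without the A+/G+ array of replicate 2 the limma adjusted p was 0.0567.

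Irx1 gave 11.29, 11.52 and 11.63 in A+/G+ and 12.44, 12.60 and 12.18 in A-/G+. The lowest A-/G+ array exceeded the highest A+/G+ array, with a difference of -0.93 ± 0.15 (SE; limma adjusted p = 0.0291). Irx2 gave 8.93, 8.98 and 9.04 in A+/G+ and 10.08, 10.12 and 9.59 in A-/G+. Its difference was nearly the same as that of Irx1 in size, at -0.94 ± 0.16 (SE; limma adjusted p = 0.0338). The second probe of Irx2 differed by -0.89 ± 0.21 and missed the threshold (limma adjusted p = 0.0682). Both genes stayed under 4-fold, and each passed the adjusted p in 1 of the 6 fits that left out an array, the one without the A-/G+ array of replicate 3, with values of 0.0684 to 0.110 for Irx1 and 0.0810 to 0.129 for Irx2 in the other 5. The probes of Irx1 and Irx2 lie 676 kb apart and those of Irx2 and Irx4 lie 635 kb apart on mm9.

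In the chromosome 8 cluster, Irx3 was 9.22, 9.31 and 9.50 in A+/G+ and 9.08, 9.15 and 8.19 in A-/G+. The A-/G+ array of replicate 3 lay apart from the other two, and the 95% interval of the difference reached from -0.21 to 1.29 (limma adjusted p = 0.371). Irx5 was 6.73, 6.60 and 6.96 in A+/G+ and 7.74, 7.51 and 7.22 in A-/G+. The fractions of Irx5 did not overlap, with a difference of -0.73 ± 0.17 (SE) that missed the threshold (limma adjusted p = 0.0697). Irx6 was above background on 1 A-/G+ array only, with signals of 2.23 to 3.35 in A+/G+ and 3.88 to 4.88 in A-/G+ (limma adjusted p = 0.119).

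Among the TALE cofactors, 6 of 6 genes were above background on all 3 arrays of a fraction, and 2 of them passed the limma adjusted p, Meis2 higher in A+/G+ and Pbx3 higher in A-/G+. Meis2, a MEIS gene known from forebrain, hindbrain and limb patterning, was 8.83, 8.25 and 8.53 in A+/G+ and 4.20, 2.36 and 4.61 in A-/G+. The fractions lay far apart, and only 1 of the 3 A-/G+ arrays, against all 3 A+/G+ arrays, was above background. The difference was 4.81 ± 0.64 (SE; limma adjusted p = 0.0187), and the medians were 20.1-fold apart, with the A-/G+ median on an array where Meis2 was not above background. With each A-/G+ array at the dimmest signal of any probe well above background there, or at the Meis2 signal if larger, the A+/G+ mean was at least 10.8-fold higher. Leaving out any A+/G+ array took the limma adjusted p to between 0.0784 and 0.0852, and the methods' t-test gave an adjusted p of 0.0512.

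Meis1, the paralog of Meis2, had signals of 12.66, 12.75 and 12.75 in A+/G+ and 13.48, 13.62 and 13.03 in A-/G+. Its fractions did not overlap either, on the opposite side from Meis2, and its difference of -0.66 ± 0.17 (SE) missed the threshold (limma adjusted p = 0.0864). Meis3 was 8.75, 8.69 and 8.65 in A+/G+ and 8.38, 8.48 and 8.81 in A-/G+. The fractions overlapped, with a 95% interval of the difference from -0.19 to 0.46 (limma adjusted p = 0.566), and the other probes of the gene overlapped as well.

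Pbx3, a PBX cofactor, had the most precise difference among the 8 genes past the adjusted p. It was 10.18, 10.25 and 10.19 in A+/G+ and 10.93, 11.02 and 11.00 in A-/G+. The arrays of each fraction lay close together and the fractions stood clear of each other, with a difference of -0.78 ± 0.05 (SE; limma adjusted p = 0.00527). Its second probe gave -0.70 ± 0.08 (SE; limma adjusted p = 0.0147). Pbx3 kept a limma adjusted p of at most 0.0342 in each of the 6 fits that left out an array. Pbx2 was 9.37, 9.36 and 9.46 in A+/G+ and 9.42, 9.84 and 9.46 in A-/G+. Pbx4 was 5.97, 6.38 and 6.67 in A+/G+ and 6.32, 6.43 and 6.72 in A-/G+. Both genes overlapped between the fractions, with 95% intervals from -0.52 to 0.17 for Pbx2 and from -0.71 to 0.41 for Pbx4.

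**Figure D3:**
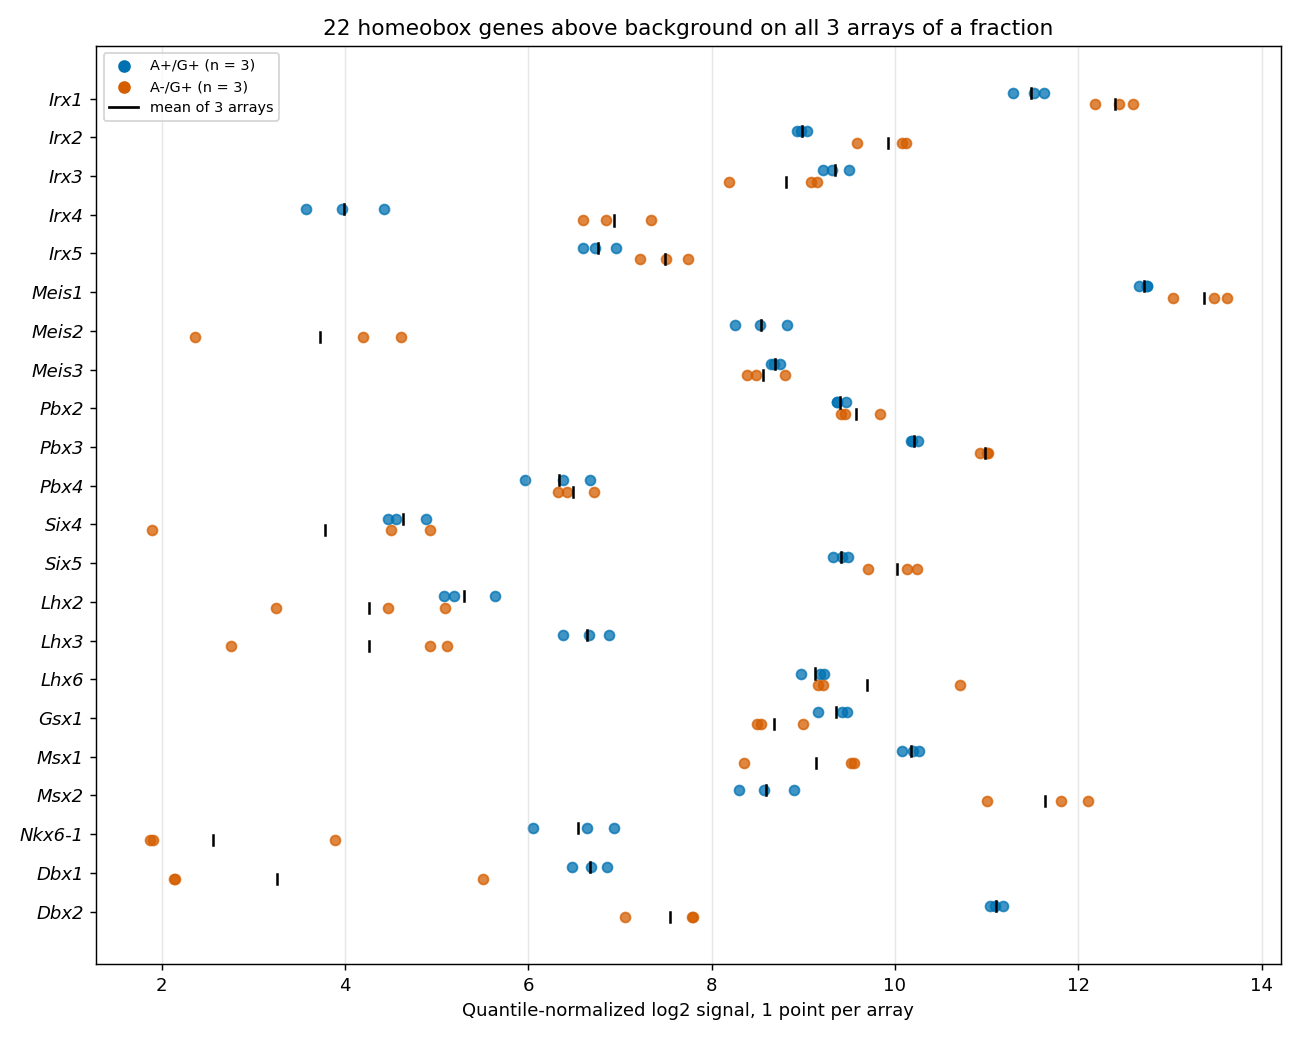
Log2 signal on each array (points) and the mean of 3 arrays (black ticks) for the 22 genes above background on all 3 arrays of a fraction, A+/G+ in blue and A-/G+ in orange. The points of Meis2, Nkx6-1, Dbx2, Irx4 and Msx2 form separate clusters, and those of Pbx3 are the tightest of the genes past the adjusted p.

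Msx1 and Msx2 are known as targets of BMP signalling in the dorsal midline of the neural tube and in skull and limb. Msx2 was 8.30, 8.57 and 8.90 in A+/G+ and 11.81, 12.11 and 11.01 in A-/G+. All 6 arrays were above background, and the fractions stood clear of each other. The difference was -3.05 ± 0.34 (SE; limma adjusted p = 0.0124), with medians 9.43-fold apart. Leaving out any A+/G+ array took the limma adjusted p to between 0.0532 and 0.0641. Msx1 was 10.26, 10.20 and 10.08 in A+/G+ and 9.52, 8.35 and 9.56 in A-/G+. The fractions of Msx1 did not overlap and were ordered opposite to those of Msx2, but its difference of 1.04 ± 0.36 (SE) missed the threshold (limma adjusted p = 0.174); the difference between the genes was not tested. Emx1 and Emx2, regulators of cortical development, were not above background on any array.

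The progenitor factors Nkx6-1, Dbx1 and Dbx2 divide the ventral and intermediate hindbrain and spinal cord into domains. Dbx2 was 11.09, 11.04 and 11.18 in A+/G+ and 7.80, 7.78 and 7.05 in A-/G+. All 6 arrays were above background and the fractions lay more than 3 log2 units apart. The difference was 3.56 ± 0.23 (SE; limma adjusted p = 0.00441), and the medians were 9.91-fold apart. Dbx2 was called in all 6 fits that left out an array, with limma adjusted p of 0.00328 to 0.0295.

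Nkx6-1 was 6.64, 6.05 and 6.94 in A+/G+ and 1.88, 1.91 and 3.89 in A-/G+. All 3 arrays of A+/G+ and 0 of the 3 of A-/G+ were above background, so that its level in A-/G+ has only an upper limit and the fold is a bound. On each A-/G+ array the limit was the dimmest signal of any probe well above background or, if larger, that of Nkx6-1 itself. Against the mean of these limits, the A+/G+ level of Nkx6-1 was at least 3.12-fold higher (measured difference 3.99 ± 0.64 SE; limma adjusted p = 0.0289). The call was lost in 5 of the 6 fits that left out an array, with limma adjusted p of 0.0711 to 0.115. Dbx1 was 6.48, 6.86 and 6.69 in A+/G+ and 2.13, 2.15 and 5.51 in A-/G+. The A-/G+ array of replicate 3, the brightest of that fraction before normalization, lay well above the other two, and the difference of 3.41 ± 1.02 (SE) missed the threshold (limma adjusted p = 0.120). That array was the only one of A-/G+ with Dbx1 above background. Without it the measured difference was 4.53 (limma adjusted p = 0.00363) against arrays on which Dbx1 has only an upper limit, and the bound was at least 2.53-fold. Nkx2-9 was not above background on any array.

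Of the 14 genes listed for the telencephalon and hypothalamus, 3 (Gsx1, Lhx2 and Lhx6) were above background on all 3 arrays of a fraction, 10 were not above background on any array and 0 passed the limma adjusted p. Gsx1, known from ventral forebrain and dorsal spinal cord progenitors, was 9.16, 9.48 and 9.43 in A+/G+ and 8.54, 8.999 and 8.50 in A-/G+. Its fractions did not overlap, and its difference of 0.68 ± 0.18 (SE) missed the threshold (limma adjusted p = 0.0881). Its paralog Gsx2 stayed between 1.93 and 2.00 on all arrays. Lhx6, a factor of forebrain interneurons, was 9.23, 8.98 and 9.18 in A+/G+ and 10.71, 9.21 and 9.17 in A-/G+. The A-/G+ array of replicate 1 alone stood out, and the other probes of Lhx6 were not above background on any array, so that the gene's probes disagree. Lhx2, a regulator of cortex and eye, was 5.08, 5.19 and 5.64 in A+/G+ and 3.24, 4.47 and 5.09 in A-/G+, with overlapping fractions (limma adjusted p = 0.329). The 4 DLX genes, which drive forebrain GABAergic interneuron development, stayed between 1.78 and 3.75 on all arrays, and Nkx2-1 between 1.99 and 2.54.

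Of the 7 genes listed for hindbrain and spinal cord neurons, Lhx3, a factor of motor and V2 interneurons, was above background on all 3 arrays of a fraction. Lhx3 was 6.88, 6.38 and 6.66 in A+/G+ and 4.93, 2.76 and 5.12 in A-/G+. The fractions did not overlap, 1 A-/G+ array was above background, and the difference of 2.37 ± 0.70 (SE) missed the threshold (limma adjusted p = 0.116). Tlx3, a selector of glutamatergic neurons of the dorsal horn, was above background on 2 A+/G+ arrays and 1 A-/G+ array, with signals of 3.68 to 4.49 and 2.23 to 5.15. Isl1, Isl2, Lhx4, Lhx9 and Phox2a, factors of motor, interneuron and visceral neuron types, were not above background on any array. The signals of Isl1 stayed between 1.98 and 2.12.

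Among the sine oculis relatives Six2 to Six6, Six5 was above background on all 6 arrays and Six4 on 4. Six5 was 9.32, 9.49 and 9.43 in A+/G+ and 10.24, 10.13 and 9.70 in A-/G+. Its fractions did not overlap, and its difference of -0.61 ± 0.16 (SE) missed the threshold (limma adjusted p = 0.0899). Six4 was 4.47, 4.89 and 4.56 in A+/G+ and 1.89, 4.93 and 4.51 in A-/G+. The single low array of replicate 1 set its mean, and its difference turned from 0.86 to -0.083 without that array (limma adjusted p = 0.588 with it). Six3, a forebrain and eye regulator, was 6.23, 2.49 and 2.08 in A+/G+ and 6.95, 4.01 and 2.54 in A-/G+. It was above background on 1 A+/G+ array, and the arrays of replicate 1 were the highest in both fractions. Six2 was above background on 2 A+/G+ arrays, with signals of 3.32 to 4.50 in A+/G+ and 1.93 to 5.07 in A-/G+.

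Markers of other cells and tissues moved with the genes that were higher in A+/G+. The 15 Hox genes of paralog groups 1 to 5, which mark neural tissue caudal to the cerebellum, had a summed linear signal of 600 to 709 on the A+/G+ arrays and 71.8 to 99.8 on the A-/G+ arrays; 5 of them were called higher in A+/G+, among them Hoxa2 and Hoxb2, and 8 (Hoxa4, Hoxa5, Hoxb1, Hoxb3, Hoxb5, Hoxc5, Hoxd1 and Hoxd4) were not above background on any array. Purkinje cell markers summed to 1990 to 5200 in A+/G+ and 200 to 358 in A-/G+ (4 of 6 called), motile cilia markers to 7860 to 13500 and 372 to 1410 (3 of 5 called), and oligodendrocyte precursor markers to 12600 to 15300 and 1120 to 2240 (2 of 5 called). Meningeal fibroblast markers summed to 82200 to 99300 in A+/G+ and 13500 to 41200 in A-/G+ (2 of 8 called), and vascular markers to 9060 to 12800 and 1700 to 7960 (1 of 8 called). Their part in the differences of Meis2, Nkx6-1 and Dbx2 was not tested. Granule neuron lineage markers were mixed. Their summed signal was 17800 to 20500 in A+/G+ and 24800 to 31600 in A-/G+, with Zic1, at a mean of 13.95 and 14.55, the brightest of them. Of the 8, 2 passed the limma adjusted p higher in A-/G+ (Etv1 and Zic2), whereas Atoh1, Neurod1 and Cbln1 had higher means in A+/G+ without passing it, and Cbln3 and Gabra6 were not above background on any array. Their part in the differences of Irx1, Irx2, Irx4, Pbx3 and Msx2 was not tested. All 8 astroglial markers were above background on every array, with a summed signal of 142000 to 156000 in A+/G+ and 132000 to 209000 in A-/G+. The 8 meningeal fibroblast markers were too, so detection alone does not show the labelled identity. The astroglial markers were split. Gfap (called) and S100b passed the limma adjusted p higher in A+/G+, and Aldh1l1 higher in A-/G+. The other 5 did not pass, among them Slc1a3, which encodes GLAST, with a difference of -1.19 (limma adjusted p = 0.0733).

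The 8 genes past the adjusted p kept their sign under all 15 other settings, which changed the normalization, background step, test and set of arrays. The 4-fold limit was applied under 14 of them. Of these 14, Dbx2 was called under 13, Irx4 under 11, Msx2 under 10, Meis2 under 9 and Nkx6-1 under 6, and Pbx3 passed the adjusted p under 13 of all 15. With normexp background correction the difference shrank to -1.33 for Irx4, 2.39 for Meis2 and 1.31 for Nkx6-1, and Irx4 and Nkx6-1 no longer reached the 4-fold limit.

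**Figure D4:**
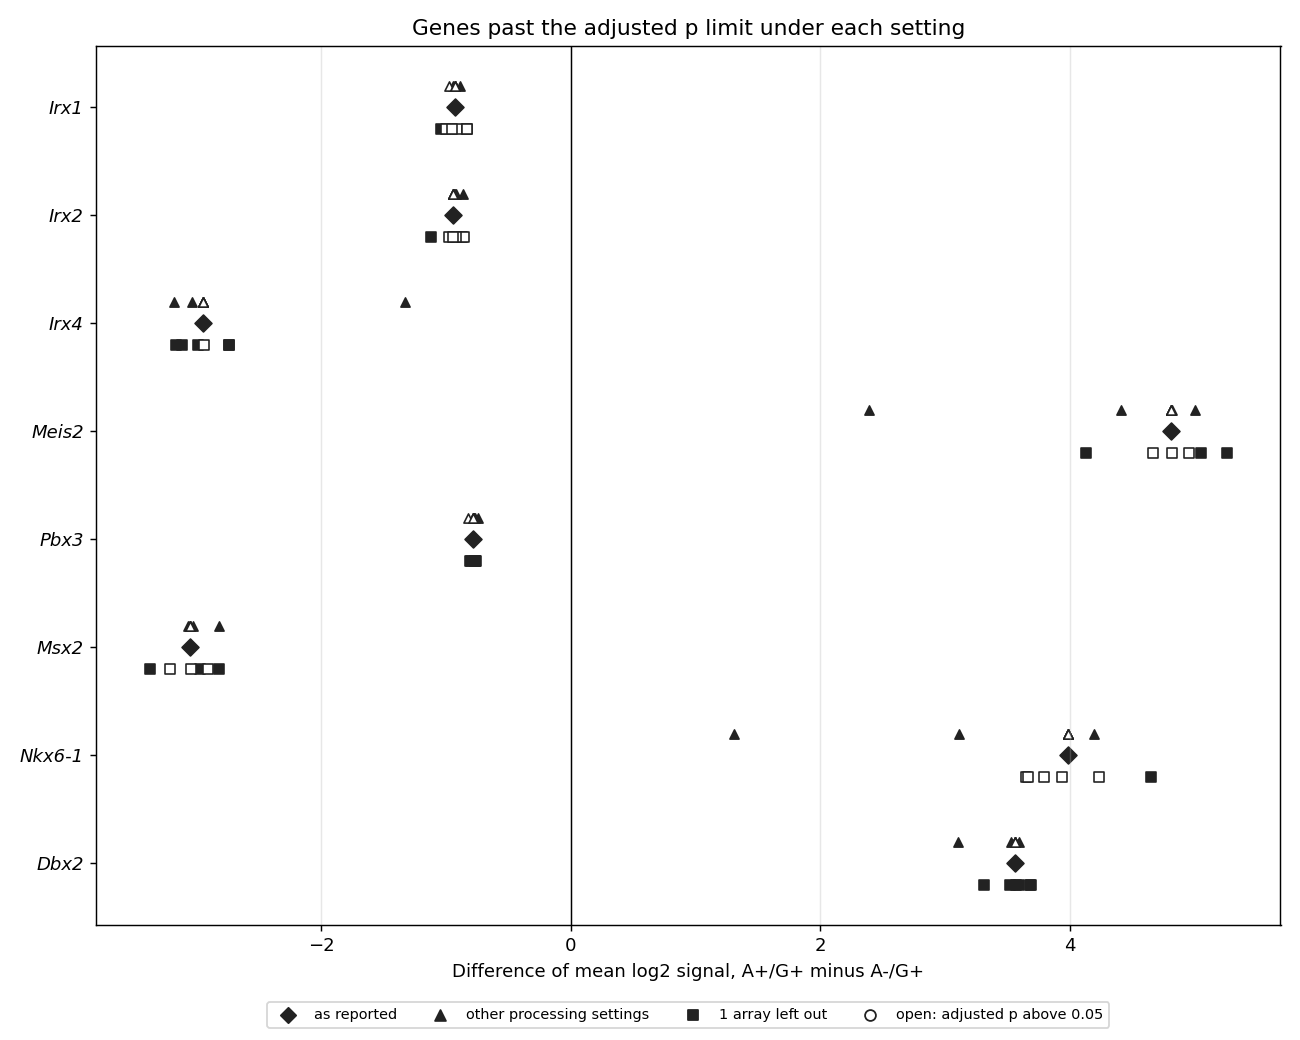
Difference of mean log2 signal between A+/G+ and A-/G+ for the 8 genes past the adjusted p, as reported (diamonds), under other processing settings (triangles) and with 1 array left out (squares); open symbols have an adjusted p above 0.05, and a triangle shared by several settings is open where any of them does. All symbols of a gene lie on 1 side of 0, and Irx4, Meis2 and Nkx6-1 have 1 triangle far nearer to 0 than the rest, that of the normexp background step.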

How the data were processed

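RNA of 6 samples was amplified, labeled with Cy3 and hybridized to Agilent 8x60K mouse arrays. The authors deposited the scanner output, with each spot's background-corrected intensity from Feature Extraction 10.7.3.1, and a table of quantile-normalized log2 values, used as an alternative. Of 62976 spots per array, 59305 were not controls. Outlier spots were dropped, the log2 intensities were quantile normalized, and replicate spots were averaged. Testing across 55681 probes used limma 3.58.1 in R 4.3.3, with the adjusted p and 4-fold limits of the paper's methods and no filter on dim probes; the methods used a t-test, which is given as an alternative. The number of arrays limits the precision. In simulated data with 55681 probes, 200 probes above background on all arrays were changed. Of those changed by 1, 2 and 3 on the log2 scale, 22.4%, 61.2% and 78.8% passed the limma adjusted p. The 4-fold limit was not applied there, and 7 unchanged probes passed as well. Far more probes passed in the real data, so these shares need not hold for them. All 42 genes are accounted for; those above background on all arrays of a fraction are given per array, and other homeobox genes where called, except some items that are not reported here. The members and lists were chosen with earlier results of these data known. Alternatives were a 75th percentile shift, normexp, the authors' table, a dim-probe filter, trend and robust variance, outlier spots kept, another size limit, all probes averaged, leaving out each array, and blocking by replicate number. Slide could not be fitted as a block.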

Additional observations from a re-analysis of the deposited data

How the results depend on the processing

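As reported, 3 probes of the homeobox genes were called toward A+/G+ and 2 toward A-/G+, 3 and 6 passed the limma adjusted p, and 8 and 0 other homeobox genes were called. Of all probes, 851 and 222 were called in these directions. The methods' t-test called 1 probe higher in A+/G+, 1 passed its adjusted p in that direction, and it called 5 other homeobox genes, with 487 and 121 of all probes. Normexp background correction called 1 probe higher in A-/G+, passed 6 and 10 probes by the adjusted p, and called 1 other homeobox gene, with 234 and 48 of all probes. With dim probes left out, 6 and 10 probes passed. The 75th percentile shift, which took the median difference of all probes from -0.04 to -1.02, passed 3 probes higher in A-/G+ and called 3 other homeobox genes. It called 604 and 938 of all probes, and Irx1, Irx2 and Pbx3 then had a limma adjusted p of 0.0501. A 2-fold limit called 5 other homeobox genes higher in A-/G+, where the calls among all probes rose from 222 to 1340. Leaving out 1 array called 1 to 4 probes toward A+/G+ and 0 to 2 toward A-/G+, passed 1 to 5 and 1 to 10, and called 5 to 8 other homeobox genes. The cause of these changes was not tested. Without the A+/G+ array of replicate 1, the difference of Pbx4 reversed to 0.038 (range without 1 array -0.32 to 0.038), and without the A-/G+ array of replicate 1, that of Six4 reversed to -0.083 (range -0.083 to 1.44). Of 330 values of single genes under other settings, 272 kept their direction and side of the threshold, 37 lost the threshold, 19 gained it and 2 reversed. Whether the replicate numbers pair the samples could not be settled. After centring each fraction on its mean, correlations of same-numbered arrays were 0.196, 0.113 and -0.114. Those of arrays with different numbers ran from -0.24 to 0.17. With 3 arrays a fraction, centring makes these values offset one another, so they can neither show nor exclude pairing. With the replicate number as a block, 0 probes of the homeobox genes were called or passed the limma adjusted p in either direction. In that fit 0 other homeobox genes and 0 of all probes were called, and Dbx2 and Pbx3 had a limma adjusted p of 0.0650. In A-/G+, 75th percentile intensities of 55.9 and 112 on the arrays of replicates 1 and 2 limit what could be seen of dim genes.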

Other observations

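Of 76 other homeobox genes, 41 were above background on all 3 arrays of a fraction. With limma, 8 were called higher in A+/G+, among them Dlx4, Gbx2, Hlx, Nkx6-2 and Pou4f2, and 0 higher in A-/G+. The 8 genes are 10.5% of the 76, against 1.93% of all gene names called higher in A+/G+ and 0.425% called higher in A-/G+. By the adjusted p alone, 10 (13.2%, against 4.82% of all gene names) were higher in A-/G+ (Prox1, Nkx2-2, Pax6, En2, Hopx, Pou3f2, Tgif1, Cux1, Pknox2 and Pknox1). Gbx2, a factor of the anterior hindbrain, was 10.04, 10.24 and 10.02 in A+/G+ and 6.92, 6.59 and 5.97 in A-/G+, a difference of 3.61 ± 0.26 (SE; limma adjusted p = 0.00553). In A-/G+, it was the only 1 of the 8 to be above background on an array. For Nkx6-2 and Pou4f2, the A+/G+ mean lay under the detection limit of the A-/G+ arrays, so that no fold can be bounded. The A+/G+ level of Dlx4 was at least 2.59-fold higher (limma adjusted p = 0.00893), whereas Dlx1, Dlx2, Dlx5 and Dlx6 were above background on 0 arrays.

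En2, known from the midbrain and anterior hindbrain, had a difference of -1.42 ± 0.15 (SE; limma adjusted p = 0.0116), and Pax6, known from granule neuron precursors, one of -1.54 ± 0.13 (SE; limma adjusted p = 0.00730). The TALE genes Pknox1, Pknox2 and Tgif1 differed by -0.45, -0.55 and -0.64, on the same side as Pbx3.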
